A study of Mus musculus with 12 samples.

Results

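Cadherins and protocadherins were examined as 85 genes of the 22317 symbols in the count table. They were chosen by name alone, as every symbol made of Cdh and a number or beginning with Pcdh, and the rule uses no measured value. The 21 Cdh genes comprised 5 type I classical cadherins, 13 type II classical cadherins and 3 others, and the 64 Pcdh genes comprised 4 delta-1, 5 delta-2 and 3 other genes that stand alone, together with 10 genes of the alpha cluster, 21 of the beta cluster and 21 of the gamma cluster. These clusters lie side by side on chromosome 18, which held 55 of the 85 genes.

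RNA-seq libraries had been made from wild-type male BALB/c mice aged 8 weeks after photothrombosis (PT), in which injected Rose Bengal is activated by a laser and blocks the vessels under the light. Per the labels, SB2 and SB4 were brain cortex on day 2 and day 4 after injury of the skull, and BS2 and BS6 were interparietal bone, a bone of the skull roof, on day 2 and day 6 after injury of the brain. Each group had 3 libraries, all mice carried the injury, and uninjured mice and the injured tissues themselves were not analysed here. The methods state in general that brain and skull pieces were taken to hold the ischemic region and its surroundings. By label, the groups used here are the tissue that was not targeted. Each sample was a piece of tissue, so every value is a mean over many cell types. The total count per library was 14126082 to 18972654, and a gene without a count in a library may still have a level of up to 3 counts there, which is 0.163 to 0.218 CPM (counts scaled to a common library size), for counting error only.

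Before any result, the labelled tissue was checked against marker genes, and it held in 2 of the 4 groups. The summed level of 5 neuronal genes (Snap25, Syt1, Rbfox3, Slc17a7 and Gad1) was 7394 to 7773 CPM in SB4 but 17.1 to 45.6 CPM in SB2, although both are labelled brain cortex. For the groups labelled bone, the same sum was 7129 to 7268 CPM in BS2 and 30.8 to 104 CPM in BS6. The summed level of 5 osteoblast genes was 36705 to 41786 CPM in SB2 and 19058 to 79190 CPM in BS6, against 21.1 to 31.9 CPM in SB4 and BS2. The libraries labelled SB2 therefore carried bone transcripts and those labelled BS2 carried brain transcripts, and the day and the kind of tissue cannot be told apart in SB4 against SB2 or in BS6 against BS2. Whether the labels or columns of the day 2 groups were exchanged was not tested. Both comparisons are therefore between libraries as labelled and need not be changes over days in one tissue after one injury. Within BS6, replicate 2 stood apart, with 13711 CPM of 3 neutrophil-lineage genes against 795 and 2041 CPM in the other two libraries and 4049 CPM of 4 fibroblast and periosteum genes against 28713 and 19431 CPM.

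Classical cadherins are single-pass adhesion molecules that bind the same or a related cadherin on the next cell in the presence of calcium and hold on to the actin skeleton through catenins. Type I members form the strong junctions of epithelia, neural tissue and muscle, and type II members are expressed in overlapping sets of neurons, vessels and mesenchyme. Protocadherins carry the same extracellular repeats without the classical catenin-binding tail. In the brain the clustered ones are expressed in different combinations from neuron to neuron, through the choice among alternative promoters, and give neurites a surface identity by which a cell avoids itself, whereas the delta protocadherins guide axon growth and synapse formation. Bone-forming cells and vessels are known for a smaller set, chiefly Cdh11, Cdh2 and Cdh5.

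The delta-2 group is shown by its promoters because its 5 members divided: Pcdh8, Pcdh10, Pcdh17 and Pcdh19 were higher in SB4 than in SB2, and Pcdh18 was lower, although all 5 had an entry in the promoter table. The bases upstream of the annotated start, from RefSeq on GRCm38.p6, are given 5′ to 3′ on the strand of the gene, without bases that lie in an annotated exon. Capitals mark 3 motifs on either strand, chosen after the sequences had been read. The GC box was searched as GGGCGG. The CCAAT box was searched as those letters. For the TATA box, the letters TATAAA were searched. None of the marked matches overlapped another.
Pcdh8, chr14:79771313-79771462, minus strand: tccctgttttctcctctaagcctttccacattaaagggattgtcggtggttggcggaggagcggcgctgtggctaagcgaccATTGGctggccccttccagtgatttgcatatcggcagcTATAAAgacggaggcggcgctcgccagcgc
Pcdh10, chr3:45378261-45378397, plus strand: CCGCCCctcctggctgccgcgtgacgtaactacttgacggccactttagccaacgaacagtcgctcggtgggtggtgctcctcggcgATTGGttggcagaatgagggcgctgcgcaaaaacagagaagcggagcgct
Pcdh17, chr14:84443413-84443562, plus strand: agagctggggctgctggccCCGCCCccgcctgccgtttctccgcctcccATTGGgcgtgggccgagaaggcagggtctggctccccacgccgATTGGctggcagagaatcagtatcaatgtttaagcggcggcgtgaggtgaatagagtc
Pcdh19, chrX:133688994-133689143, minus strand: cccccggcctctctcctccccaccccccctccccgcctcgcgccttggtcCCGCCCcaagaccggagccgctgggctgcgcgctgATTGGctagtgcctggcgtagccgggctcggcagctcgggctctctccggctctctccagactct
Pcdh18, chr3:49757326-49757466, minus strand: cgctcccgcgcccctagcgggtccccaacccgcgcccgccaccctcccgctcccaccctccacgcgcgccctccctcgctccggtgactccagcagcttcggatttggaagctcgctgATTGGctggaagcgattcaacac

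A CCAAT box stood in each of these 5 windows, in the gene that was lower as well as in the 4 that were higher. Among the 22 members with an entry it was found in 14 (63.6%) over 250 upstream bases, against 33.8% of all 32851 promoters in the table. The GC box was found in 9 of the 22 (40.9%, against 32.7% of all promoters) and the TATA box in 2, Pcdh8 and Pcdh15 (9.09%, against 12.4%). The 5 genes shown are among the 22, and the motifs were chosen after their sequences had been read. Each member gave its first entry only, while all entries were counted for the table. These shares are therefore no test of enrichment. A match is a description of the letters and not a shown binding site.

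Between the groups labelled as cortex after skull injury, most cadherins and protocadherins tested were higher in SB4 than in SB2. Of 82 members tested, 50 were higher and 8 were lower at an adjusted p under 0.05 with a log2 fold change beyond 1 (edgeR quasi-likelihood test, Benjamini-Hochberg adjustment over all genes), and 13 passed the adjusted p only. Of all 17293 genes tested, 27.8% were higher and 28.6% lower, 56.4% in either direction. The median log2 fold change was 1.38 over the members tested and -0.01 over all genes tested.

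**Figure D1:**
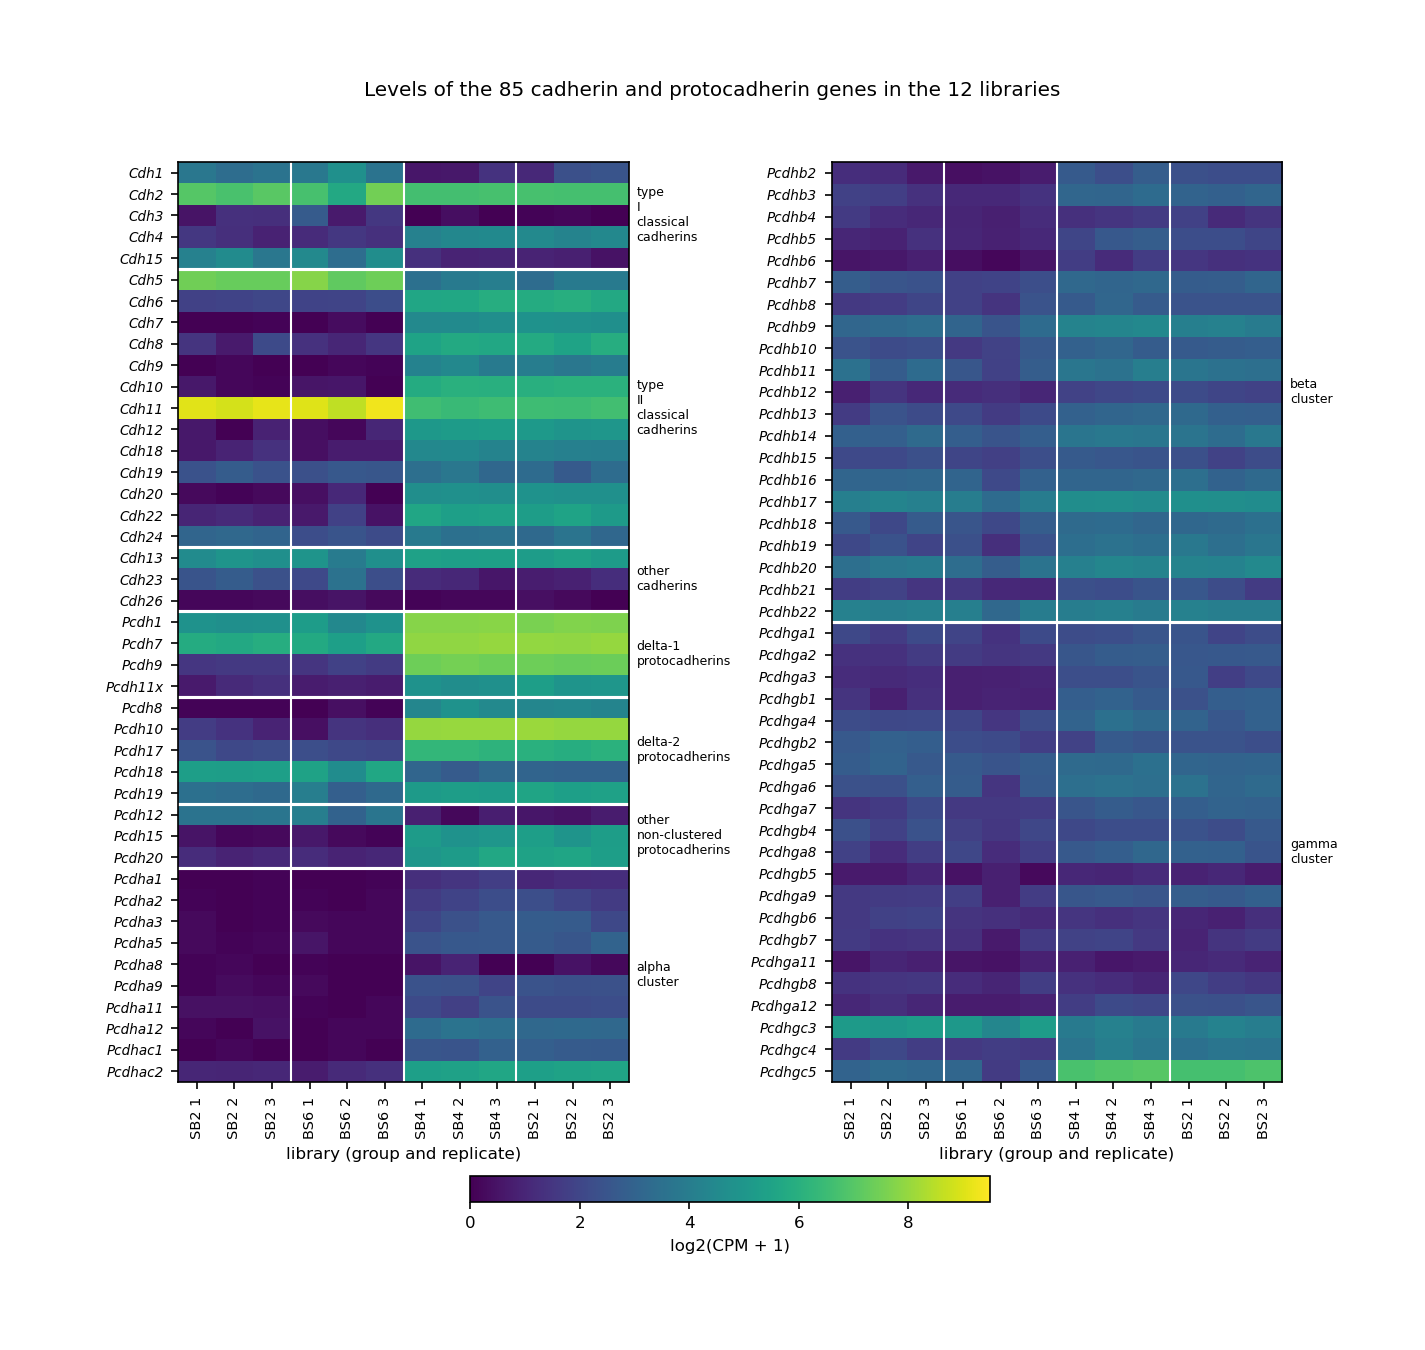
Levels of the 85 genes (rows, by subfamily and, in the clusters, in chromosome order) in the 12 libraries (columns, by group and replicate) as log2(CPM + 1). The SB2 and BS6 columns resemble each other, as do the SB4 and BS2 columns, and Cdh11 is the brightest row in SB2 and BS6, at means of 524 and 512 CPM.

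Several type II cadherins were among the genes with the largest differences in the family. Cdh7 was read at 21.1, 22.2 and 24.8 CPM in the SB4 libraries and at 0, 0 and 0.0611 CPM in the SB2 libraries. With 1 count in all of SB2 the ratio was 1117, with an exact 95% counting interval of 200.1 to 44154 (adjusted p = 2.19e-10, edgeR). Such an interval is for the summed counts of each group and leaves out the spread between libraries. Cdh9 was at 17.7, 20.5 and 13.7 CPM in SB4 and at 0, 0.133 and 0 CPM in SB2, a ratio of 424 (95% counting interval 117 to 3507) on 2 counts. No SB2 library reached the SB4 range for either gene.

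Cdh10 was at 56.3, 64.7 and 63.1 CPM in SB4 and at 0.513, 0.133 and 0.0611 CPM in SB2. Its log2 fold change was 7.93 (SE 0.26, adjusted p = 6.12e-10, edgeR) and 9.22 without SB2 replicate 1. Cdh12, Cdh8, Cdh18, Cdh20, Cdh22 and Cdh6 followed the same direction, with log2 fold changes of 6.23 (SE 0.395), 4.70 (SE 0.392), 4.33 (SE 0.269), 7.40 (SE 0.217), 5.43 (SE 0.153) and 4.23 (SE 0.13). Without SB2 replicate 3 the values of Cdh12 and Cdh8 were 6.98 and 5.38. These genes are expressed in restricted nuclei and layers of the brain. Cdh19, known from Schwann cells and other glia of the nerve, had a log2 fold change of 1.11 (SE 0.207), which was 0.95 and no longer called without SB4 replicate 2. Of the other type II genes, 2 were lower and Cdh24 passed the adjusted p only (0.62, SE 0.158).

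The type II and type I genes on chromosomes 15 and 8 are given by position, as a description. Cdh6, Cdh9, Cdh10, Cdh12 and Cdh18 lie on chromosome 15 between 13028701 and 23474418 (mm10 coordinates, GENCODE M21), and 5 of 5 were higher in SB4, as were 10 of the 13 type II genes in all, beside 27.8% of all genes higher and 28.6% lower. Chromosome 8 held 7 members, of which 6 were tested and 4 were lower (Cdh1, Cdh5, Cdh11 and Cdh15) and 1, Cdh8, was higher. Cdh8 and Cdh11 are neighbours in this list, at 99024471 to 99416471 and 102632095 to 102785642, and differed in opposite directions.

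Cdh11, the osteoblast cadherin, and Cdh5, the VE-cadherin of endothelial junctions, were the 2 type II genes lower in SB4. Cdh11 was read at 531, 471 and 569 CPM in SB2 and at 95.5, 85.7 and 92.4 CPM in SB4 (log2 fold change -2.52, SE 0.0905, adjusted p = 2.93e-10, edgeR). Cdh5 was at 171, 155 and 156 CPM in SB2 and at 10.4, 13.9 and 15.9 CPM in SB4 (log2 fold change -3.57, SE 0.129). Cdh11 was still well detected in SB4. The summed level of 5 other endothelial genes (Pecam1, Kdr, Tek, Cldn5 and Emcn) was 527 to 568 CPM in SB2 and 83.0 to 101 CPM in SB4. Of these 5, 4 were lower in SB4, and Cldn5 was at 21.2, 18.4 and 15.8 CPM in SB2 and at 18.6, 27.5 and 25.2 CPM in SB4. The part of this list in the difference of Cdh5 was not tested. Fewer cells of a type and less RNA per cell cannot be told apart in such bulk samples.

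The 5 type I cadherins did not move as a group. Cdh2, the N-cadherin of neurons, mesenchyme and muscle, was at 126, 109 and 132 CPM in SB2, 99.2, 99.8 and 105 CPM in SB4, 105, 102 and 103 CPM in BS2 and 105, 51.9 and 176 CPM in BS6. Its log2 fold change was -0.27 (SE 0.078, adjusted p = 0.00761, edgeR) in SB4 against SB2 and 0.14 (95% interval -0.82 to 1.10) in BS6 against BS2. Cdh4, the R-cadherin of retina and brain, was higher in SB4 (3.82, SE 0.228). Cdh3, the P-cadherin of epithelia, had 3 counts or fewer in most libraries of SB4 and BS2 and was not tested in SB4 against SB2.

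Cdh1 and Cdh15 were the type I genes that were lower. E-cadherin, Cdh1, which joins epithelial cells and is also found on some blood-forming cells, was at 12.5, 9.66 and 11.4 CPM in SB2 and at 0.497, 0.544 and 1.62 CPM in SB4 (log2 fold change -3.61, SE 0.352, and -4.39 without SB4 replicate 3). Summed levels of 2 epithelial genes (Epcam and Krt8) were 2.28, 6.39 and 10.3 CPM in SB2 and 0.142 to 0.326 CPM in SB4, and their part was not tested. Cdh15, the M-cadherin of muscle precursors, was at 17.2, 23.2 and 12.5 CPM in SB2 and at 1.49, 0.924 and 1.00 CPM in SB4 (log2 fold change -3.96, SE 0.284). Summed levels of 3 skeletal muscle genes were 1184, 1368 and 167 CPM in the same SB2 libraries and 6.81 to 7.50 CPM in SB4. SB2 replicate 3 was the lowest of its group in both. In BS6 the mean of Cdh15 was 18.4 CPM, against 17.6 CPM in SB2, while the muscle sum was 36.4 to 286 CPM. The part of muscle in the difference was not tested.

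**Figure D2:**
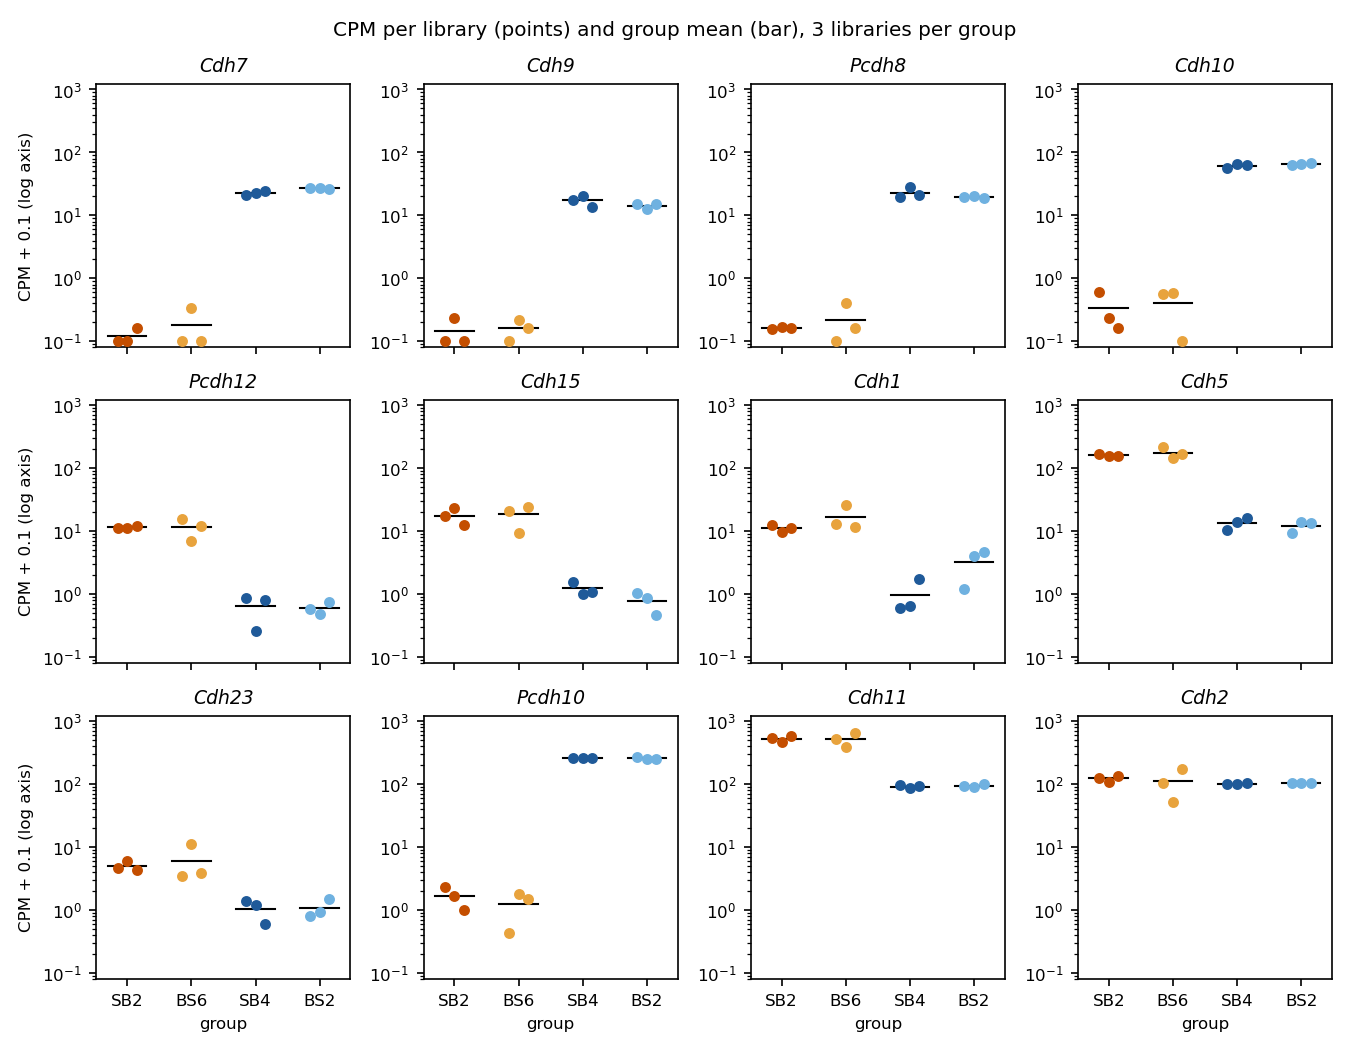
CPM + 0.1 on a log axis for 12 cadherins and protocadherins in the 4 groups, with 1 point per library and a bar at the group mean. Cdh7, Cdh9, Pcdh8 and Cdh10 are at or near the floor in SB2 and BS6, Pcdh12, Cdh15 and Cdh5 show the opposite order, and Cdh2 lies near 100 CPM in all 4 groups apart from 51.9 and 176 CPM in 2 of the BS6 libraries.

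All 4 delta-1 protocadherins were higher in SB4, beside 27.8% of all genes. Pcdh9 was at 169, 181 and 170 CPM in SB4 and at 1.82, 2.00 and 2.01 CPM in SB2 (log2 fold change 6.48, SE 0.0902). Pcdh1 and Pcdh7, which are also expressed outside the nervous system, were at means of 26.2 ± 0.984 and 55.9 ± 3.97 CPM (SD, n = 3) in SB2. In SB4 they were at 221 ± 4.41 and 246 ± 9.17 CPM, log2 fold changes of 3.08 (SE 0.0661) and 2.14 (SE 0.0738). Pcdh11x had a log2 fold change of 4.58 (SE 0.213).

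Among the delta-2 genes whose promoters are given above, Pcdh8, an activity-regulated synaptic protocadherin, was at 19.6, 28 and 21 CPM in SB4 and at 0.057, 0.0666 and 0.0611 CPM in SB2, a ratio of 378 (95% counting interval 129 to 1835) on 3 counts. Pcdh10 was at 256, 262 and 259 CPM in SB4 and at 2.22, 1.60 and 0.916 CPM in SB2 (log2 fold change 7.35, SE 0.165). Pcdh17 and Pcdh19 had log2 fold changes of 4.31 (SE 0.117) and 1.94 (SE 0.103). Pcdh18 was at 39.5, 38.0 and 40.1 CPM in SB2 and at 7.66, 5.71 and 8.36 CPM in SB4 (log2 fold change -2.43, SE 0.132, adjusted p = 1.03e-08, edgeR). It lies on chromosome 3, as does Pcdh10, which differed in the opposite direction.

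Of the remaining solitary genes, Pcdh12, an endothelial protocadherin, was at 11.3, 11.3 and 12 CPM in SB2 and at 0.780, 0.163 and 0.724 CPM in SB4 (log2 fold change -4.40, SE 0.33). Pcdh20 and Pcdh15 were higher, at 5.10 (SE 0.244) and 6.97 (SE 0.241, and 7.56 without SB2 replicate 1). Pcdh15 and Cdh23 form the tip link of sensory hair cells together, and here they differed in opposite directions, Cdh23 being lower at -2.34 (SE 0.317). Cdh13, a cadherin held to the membrane by a lipid anchor, passed the adjusted p only, at 0.68 (SE 0.0982), and Cdh26 was too low to be tested.

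The clustered protocadherins are given cluster by cluster, and the difference between clusters was not tested. All 9 alpha genes tested were higher in SB4 (median log2 fold change 5.55), against 9 of 21 beta genes (median 0.85) and 11 of 21 gamma genes (median 1.11). In either direction 100% of the alpha, 42.9% of the beta and 57.1% of the gamma genes were called, beside 56.4% of all genes. Summed over the 10 alpha genes, the level was 1.99, 1.86 and 2.20 CPM in SB2 and 72.7, 80.0 and 89.2 CPM in SB4. The beta sum was 112, 111 and 118 CPM in SB2 and 184, 193 and 196 CPM in SB4. Thus the alpha genes were nearly silent in the libraries rich in bone transcripts, while the beta genes were read there at a level nearer to that in SB4.

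Within the alpha cluster the C-type gene Pcdhac2 took the most reads, with 40.0, 42.7 and 48.4 CPM in SB4 and 1.03, 0.999 and 1.10 CPM in SB2 (log2 fold change 5.39, SE 0.141). Pcdhac1 was at 4.82, 4.51 and 6.74 CPM in SB4 and held 2 counts in SB2, a ratio of 132 (95% counting interval 36.2 to 1095), both in replicate 2. Pcdha12 had a log2 fold change of 5.90 (SE 0.428, and 7.21 without SB2 replicate 3). Pcdha1 held 1 count in SB2 and Pcdha2 held 2, and their ratios were 93.2 (95% counting interval 16.3 to 3717) and 71.3 (19.4 to 594). Pcdha8 was not tested in either comparison.

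Genes of the beta cluster are single-exon genes, and their log2 fold changes ran from -0.09 to 2.26. Pcdhb17, which had the most reads of these, was at 24.1, 24.7 and 22.7 CPM in SB4 and 16.3, 18.6 and 16.6 CPM in SB2 (log2 fold change 0.48, SE 0.0965). Pcdhb22 was at 15.3, 16.6 and 14.4 CPM in SB4 and 16.9, 15.5 and 17 CPM in SB2 (-0.09, 95% interval -0.32 to 0.15), and the 2 groups overlapped. At the other end, Pcdhb2, Pcdhb5 and Pcdhb3 had log2 fold changes of 2.26 (SE 0.323), 2.02 (SE 0.328) and 1.89 (SE 0.216). Pcdhb20 passed the adjusted p only, at 0.59 (SE 0.135).

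The gamma cluster held opposite directions. Pcdhgc5 was at 109, 120 and 131 CPM in SB4 and 7.06, 8.86 and 8.06 CPM in SB2 (log2 fold change 3.91, SE 0.106), and Pcdhgc4 followed at 2.40 (SE 0.207). Pcdhgc3, which precedes them on the chromosome, was lower in SB4, at 13.6, 16.9 and 13.9 CPM against 35.5, 31.5 and 36.7 CPM in SB2 (log2 fold change -1.22, SE 0.109, adjusted p = 9.1e-07, edgeR). When the gamma genes were divided by the type in their symbol, a division made after the values had been seen, 8 of 11 A-type genes were higher (median 1.22) and 1 of 7 B-type genes, Pcdhgb1 (2.20, SE 0.267; median of the 7 -0.01), beside 27.8% of all genes. The alpha and gamma genes share their last exons within each cluster, and some overlap a further gene. Exon bases that also belong to another annotated gene, the shared last exons included, make up 48.6% to 63.6% of those of an alpha gene and 31.5% to 73.6% of those of a gamma gene. How reads in shared exons were counted is not given in the sources used here, so the values of single genes in these clusters are uncertain.

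**Figure D3:**
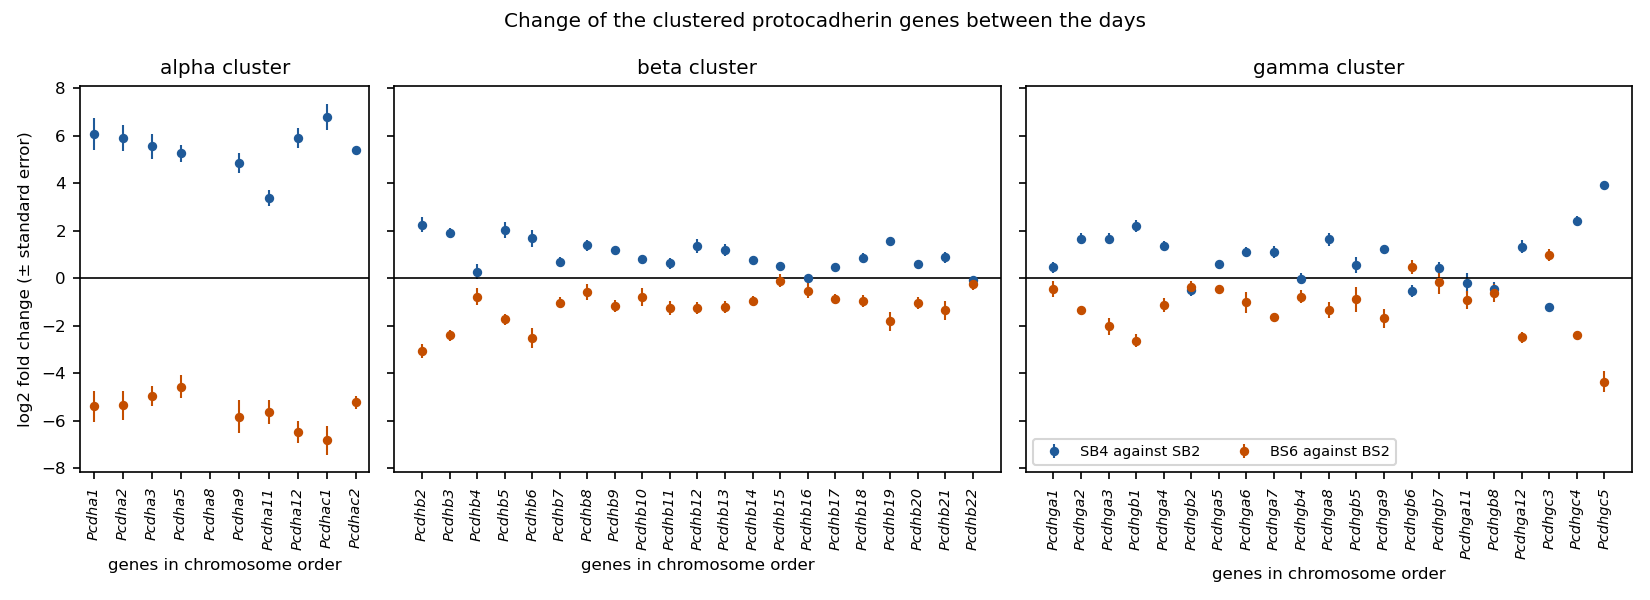
Log2 fold change ± standard error (vertical axis) of the clustered protocadherin genes in chromosome order (horizontal axis) for SB4 against SB2 and BS6 against BS2. The alpha genes lie far from 0 on opposite sides, the beta genes lie nearer to 0, and in the gamma cluster Pcdhgc3 has the reverse order of Pcdhgc4 and Pcdhgc5. Pcdha8, without a point, was not tested.

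Between the groups labelled as bone after brain injury, the same family was mostly lower in BS6 than in BS2. Of 83 members tested, 52 were lower and 8 higher, and 7 passed the adjusted p only (edgeR quasi-likelihood test, adjusted over all genes). Of all 17311 genes tested, 26.5% were lower and 29% higher, 55.5% in either direction. The median log2 fold change was -1.35 over the members and 0.02 over all genes. Without BS6 replicate 2 the counts were 48 lower and 9 higher.

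Cdh7 was at 27.6, 27.0 and 25.9 CPM in BS2 and at 0, 0.242 and 0 CPM in BS6 (log2 fold change -8.16, SE 0.604). All 4 of its counts in BS6 came from replicate 2, without which the group is at 0. Cdh9 was at 15.1, 12.5 and 15 CPM in BS2 and at 0, 0.121 and 0.0636 CPM in BS6, 3 counts in all, so that BS2 was higher by a ratio of 225 (95% counting interval 76.8 to 1096). Cdh10 was at 62.6, 65.6 and 66.8 CPM in BS2 and at 0.456, 0.483 and 0 CPM in BS6 (log2 fold change -7.62, SE 0.55). Cdh20 and Cdh22 were highest in BS6 replicate 2, at 1.15 and 2.60 CPM, and without it their log2 fold changes of -5.68 and -4.98 were -7.27 and -6.28. The neuronal sum was also highest in that library, at 104 CPM, and its part in these values was not tested. Cdh8 and Cdh12 were instead lowest in BS6 replicate 2, at 1.03 and 0.121 CPM. For Cdh12 the log2 fold change of -6.02 was -7.28 without BS6 replicate 3.

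Pcdh10 was at 268, 254 and 252 CPM in BS2 and at 0.326, 1.69 and 1.40 CPM in BS6 (log2 fold change -7.77, SE 0.486). Pcdh8 was at 19.4, 20.6 and 18.5 CPM in BS2 and at 0, 0.302 and 0.0636 CPM in BS6 (log2 fold change -7.15, SE 0.555, and -8.89 without BS6 replicate 2). Pcdh9, Pcdh17 and Pcdh19 were lower by the same test, at -6.21 (SE 0.164), -4.20 (SE 0.15) and -2.03 (SE 0.332). Pcdh18 was higher, at 43.0, 23.8 and 49.2 CPM in BS6 and 7.26, 6.92 and 6.90 CPM in BS2 (log2 fold change 2.49, SE 0.278), and was again the 1 delta-2 gene in that direction. In the clusters, 9 of 9 alpha genes, 12 of 21 beta genes and 10 of 21 gamma genes were lower and none was higher, which is 100%, 57.1% and 47.6% called beside 26.5% of all genes lower and 55.5% called in either direction. Pcdha9 was at 4.36, 4.03 and 4.07 CPM in BS2 and held 3 counts in BS6, all in replicate 1, so that BS2 was higher by a ratio of 66.1 (95% counting interval 22.3 to 323). Pcdhb2, Pcdhb6 and Pcdhb3 were the beta genes with the largest changes, at -3.06 (SE 0.301), -2.51 (SE 0.423) and -2.40 (SE 0.23). In the gamma cluster these were Pcdhgc5, Pcdhgb1 and Pcdhga12, at -4.36 (SE 0.435), -2.64 (SE 0.272) and -2.49 (SE 0.24). Pcdhgc3 passed the adjusted p only, at 0.98 (SE 0.245).

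Higher in BS6 were Cdh1, Cdh3, Cdh5, Cdh11, Cdh15, Cdh23, Pcdh12 and Pcdh18. Cdh15 was at 21.2, 9.42 and 24.5 CPM in BS6 and 0.944, 0.768 and 0.363 CPM in BS2 (log2 fold change 4.72, SE 0.504), while the 3 muscle genes summed to 45.1, 36.4 and 286 CPM in BS6. Pcdh12 was at 15.8, 7.01 and 12 CPM in BS6 and 0.472, 0.384 and 0.654 CPM in BS2 (4.55, SE 0.409). Cdh5 was at 216, 144 and 168 CPM in BS6 and 9.20, 13.9 and 13.6 CPM in BS2 (3.89, SE 0.236), beside an endothelial sum of 491 to 635 CPM in BS6 and 60.2 to 92.5 CPM in BS2. Of the 5 genes in this sum, 4 were higher in BS6 and 1 did not pass the adjusted p. Pcdh12 and Cdh5 were lowest in BS6 replicate 2, as was the endothelial sum.

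Cdh23 and Cdh1 showed the reverse within BS6. Cdh23 was at 3.33, 10.9 and 3.82 CPM in BS6 and 0.708, 0.832 and 1.38 CPM in BS2 (log2 fold change 2.68, SE 0.586, and 1.93 without BS6 replicate 2). Cdh1 was at 13.1, 26.5 and 11.4 CPM in BS6 and 1.12, 3.97 and 4.50 CPM in BS2 (2.46, SE 0.573). For both, replicate 2 was the highest, the library with 13711 CPM of neutrophil-lineage genes, whose part was not tested. The summed level of 2 epithelial genes (Epcam and Krt8) was also highest there, at 7.31 CPM against 3.91 and 3.75 CPM, and its part was not tested. Cdh3 was at 5.54, 0.604 and 1.91 CPM in BS6 and held 3 counts in BS2, a ratio of 40.6 (95% counting interval 13.6 to 199, adjusted p = 0.0066, edgeR). The fitted log2 fold change of 5.24 was 4.16 without BS6 replicate 1 and 6.07 without BS2 replicate 2.

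The direction turned between these 2 comparisons, which share no library. Of the 58 members called in SB4 against SB2 and the 60 called in BS6 against BS2, 54 were called in both, and 54 of 54 had opposite directions. The same held for 99.8% of the 8355 genes of the whole table called in both. Higher in SB4 and lower in BS6 were 47 members, 7 were the reverse, 10 were called in 1 comparison only and 21 in neither. In a fit over all 12 libraries the difference between the 2 changes passed an adjusted p under 0.05 for 72 of 83 members tested. That share is close to the 84.9% of all 18068 genes tested. Cdh2 (-0.42, SE 0.438) and Pcdhb22 (0.16, SE 0.282) were among the 11 tested members that did not pass.

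Groups with like neuronal and osteoblast marker content were then compared with each other, BS6 with SB2 and SB4 with BS2. BS6 and SB2 were less alike in other markers. The 3 muscle genes summed to 1184, 1368 and 167 CPM in SB2 and 45.1, 36.4 and 286 CPM in BS6. The 3 neutrophil-lineage genes summed to 679, 871 and 467 CPM in SB2 and 795, 13711 and 2041 CPM in BS6. Of both lists, 0 genes were called between BS6 and SB2. In BS6 against SB2, 0 of 66 members tested were called, with 1.86% of all 16329 genes called (1.11% higher and 0.741% lower). The count over all genes, 182 higher and 121 lower, was 0 in each direction without any one of the SB2 libraries, 17 and 17 without BS6 replicate 1, 15 and 17 without BS6 replicate 3, and 397 and 270 without BS6 replicate 2. By DESeq2 it was 752 and 320, and in one edgeR fit over the 12 libraries 947 and 326. By edgeR 5 members (7.58%, against 29.2% of all genes) had an unadjusted p under 0.05, and by DESeq2, which also called 0, 5 members (5.88%, against 23% of all genes). The 95% interval of the log2 fold change lay within 1 of 0 for 30 of the 66, so that for the other 36 a change of 2-fold was within the interval. Cdh11 differed by -0.02 (95% interval -0.51 to 0.47) and Cdh5 by 0.15 (-0.24 to 0.53). Cdh24, a type II cadherin, passed the adjusted p only, at 3.78, 4.47 and 3.5 CPM in BS6 and 7.52, 8.19 and 7.45 CPM in SB2 (log2 fold change -0.96, SE 0.185, adjusted p = 0.0412, edgeR). Every BS6 library was below every SB2 library for this gene, but the adjusted p was kept in 1 of the 6 fits that leave out a library, that without BS6 replicate 2 (0.00861, log2 fold change -1.07). It was 0.0817 and 0.0981 without BS6 replicates 1 and 3 and 0.184, 0.132 and 0.157 without SB2 replicates 1, 2 and 3. The adjusted p of Cdh24 was 0.000643 by DESeq2 and 0.00776 in one edgeR fit over the 12 libraries, and over all settings run its log2 fold change stayed between -1.07 and -0.88.

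In SB4 against BS2, 0 of 82 members were called, with 0.147% of all 16278 genes called (0.086% higher and 0.0614% lower). The count over all genes, 14 higher and 10 lower, was 68 and 17 without SB4 replicate 3, 12 and 47 without BS2 replicate 1, and 25 and 16 without SB4 replicate 2. By DESeq2 the numbers were 29 and 17, without a filter on low counts 26 and 24, and in one edgeR fit over the 12 libraries 3 and 5. An unadjusted p under 0.05 was found by edgeR for 17 members (20.7%, against 11.9% of all genes) and by DESeq2 for 13 (15.3%, against 6.9%), and DESeq2 called 1, Cdh1. The interval lay within 1 of 0 for 73 of the 82 members. Cdh10 differed by -0.10 (95% interval -0.23 to 0.04), Pcdh10 by -0.01 (-0.12 to 0.10) and Pcdhac2 by 0.01 (-0.15 to 0.18). Cdh1 had the largest difference, -1.81 (95% interval -3.38 to -0.24, adjusted p = 0.354, edgeR), with SB4 replicate 3 at 1.62 CPM above BS2 replicate 1 at 1.12 CPM. Its adjusted p was 0.0238 by DESeq2 (log2 fold change -1.84) and 0.0057 by edgeR without BS2 replicate 1 (-2.23).

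**Figure D4:**
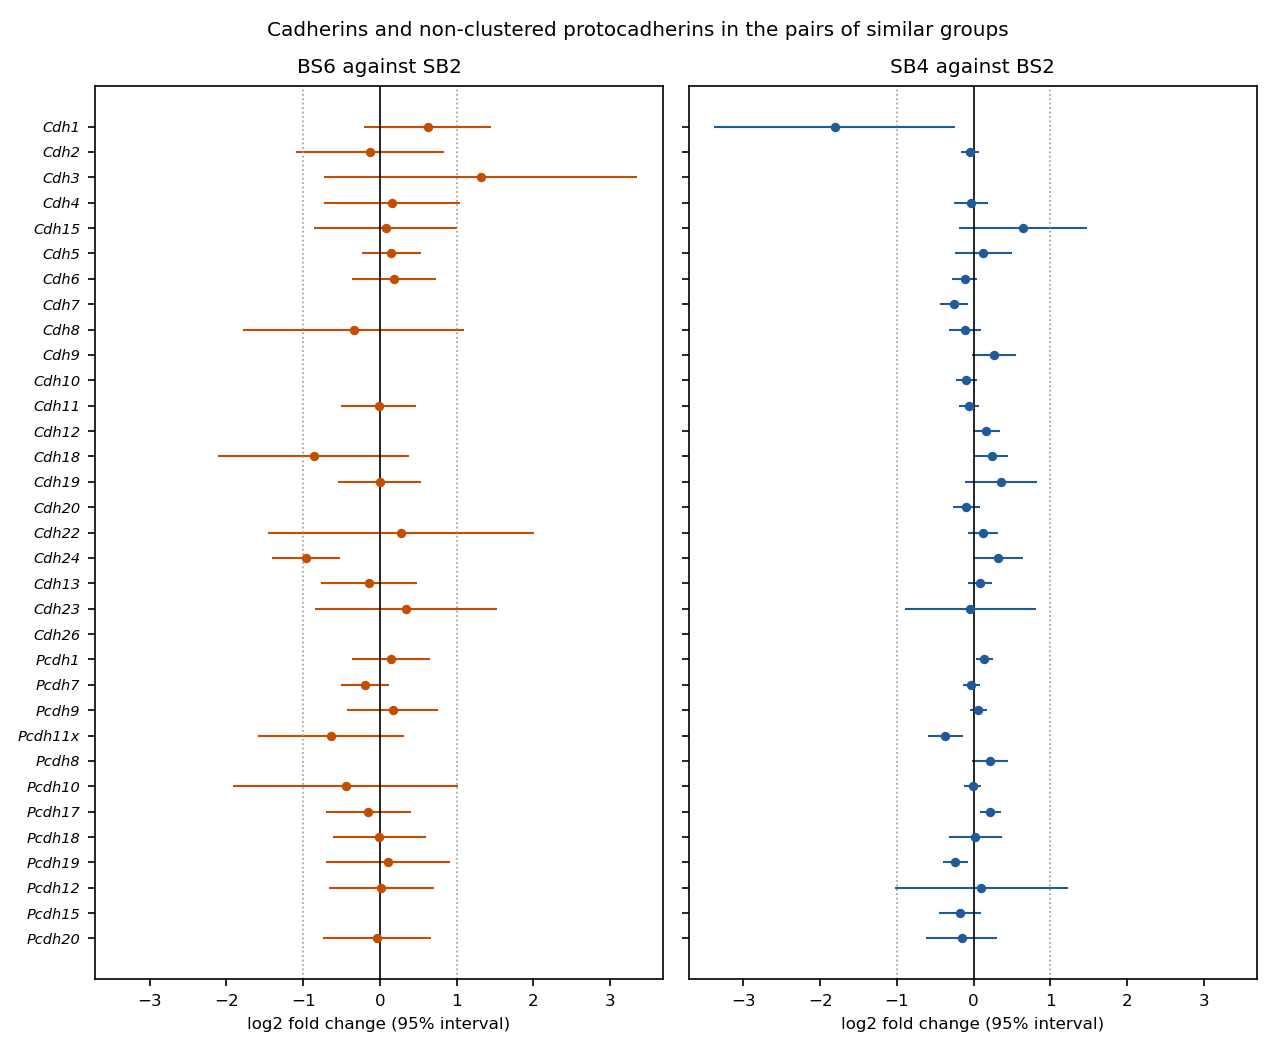
Log2 fold change (horizontal axis) with its 95% interval for the cadherins and solitary protocadherins in BS6 against SB2 (left) and SB4 against BS2 (right), with dotted lines at -1 and 1. Intervals are wider on the left, Cdh24 lies near -1 there, and Cdh1 is the gene farthest from 0 on the right. Genes without a point were not tested.

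Levels of different genes were compared per exon length, as reads per kilobase of merged exons, scaled to library size (RPKM), leaving out the alpha and gamma clusters for their shared exons. Of the genes named here, Pcdh7 also shares 21.1% of its exon bases with another annotated gene, so its rank is uncertain. In SB2 the order was Cdh11 at 58.8 ± 5.55 (SD, n = 3), Cdh5 at 38.2 ± 2.12, Cdh2 at 15.2 ± 1.47 and Pcdh18 at 7.31 ± 0.199, and BS6 had the same 4 genes in that order at 57.6 ± 14.3, 41.9 ± 8.79, 13.8 ± 7.75 and 7.20 ± 2.47. In SB4 the first 3 were Pcdh9 at 25.6 ± 0.995, Pcdh1 at 25.2 ± 0.502 and Pcdh7 at 23.2 ± 0.865, followed by Pcdh10 at 16.3 ± 0.197 and Cdh2 at 12.6 ± 0.416. Pcdh9 and Pcdh1 lay within 1 SD of each other. BS2 had Pcdh9, Pcdh7 and Pcdh1 first, at 24.2 ± 0.867, 23.4 ± 0.839 and 22.6 ± 1.06, which also lay within 1 SD from neighbour to neighbour. The first 3 members were classical cadherins in SB2 and BS6 and delta-1 protocadherins in SB4 and BS2, and Cdh2 was among the first 5 in all 4 groups.

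Intracellular partners of the classical cadherins were called in both directions. Of 13 catenins and junction partners, 4 were higher and 4 lower in SB4 against SB2 (61.5% called, against 56.4% of all genes), and as many in each direction in BS6 against BS2 (61.5%, against 55.5%). The alpha-catenin of neurons, Ctnna2, was higher in SB4 (7.26, SE 0.171) and lower in BS6 (-7.30, SE 0.616), as was the delta-catenin of neurons, Ctnnd2 (5.76, SE 0.126, and -4.88, SE 0.228). The widely expressed Ctnna1 and Ctnnb1, encoding alpha-E-catenin and beta-catenin, were lower in SB4 (-1.99, SE 0.0786, and -1.57, SE 0.0736) and higher in BS6 (1.85, SE 0.118, and 1.27, SE 0.167). Vinculin, Vcl, which strengthens the link to actin, was lower in SB4 (-2.79, SE 0.0776).

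Other cadherin-repeat genes were also called in both directions. Of 15 tested outside the 85, with Ret, a receptor kinase with cadherin-like repeats, among them, 6 were higher and 6 lower in SB4 against SB2, and 5 were higher and 6 lower in BS6 against BS2 (80% and 73.3% called, against 56.4% and 55.5% of all genes). Calsyntenin genes Clstn1, Clstn2 and Clstn3, synaptic cadherin-repeat proteins, and the Flamingo homologues Celsr2 and Celsr3 were higher in SB4, with Clstn2 at 6.64 (SE 0.126) and Celsr2 at 6.02 (SE 0.127). The giant cadherins Fat1 and Fat4 and Dchs1, the ligand of Fat4, were lower, at -2.21 (SE 0.0995), -2.37 (SE 0.126) and -2.60 (SE 0.0982). Of 12 genes known to act at clustered protocadherin promoters, among them Ctcf and the cohesin subunits Rad21, Smc1a and Smc3, only the DNA methyltransferase Dnmt3b was called, at -2.73 (SE 0.253) in SB4 against SB2 and 2.46 (SE 0.272) in BS6 against BS2 (8.33% of the list in each, against 56.4% and 55.5% of all genes). In SB4 against SB2, 7 others passed the adjusted p only, and 10 of the 12 had a negative log2 fold change (median -0.36). Among these 7 were Smc1a at -0.59 (SE 0.0643), Smc3 at -0.49 (SE 0.0661) and Rad21 at -0.36 (SE 0.077). In BS6 against BS2, 4 passed the adjusted p only and 10 of the 12 were positive (median 0.28). Ctcf did not pass in either, at -0.12 (SE 0.0645) and 0.03 (SE 0.0977).

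**Figure D5:**
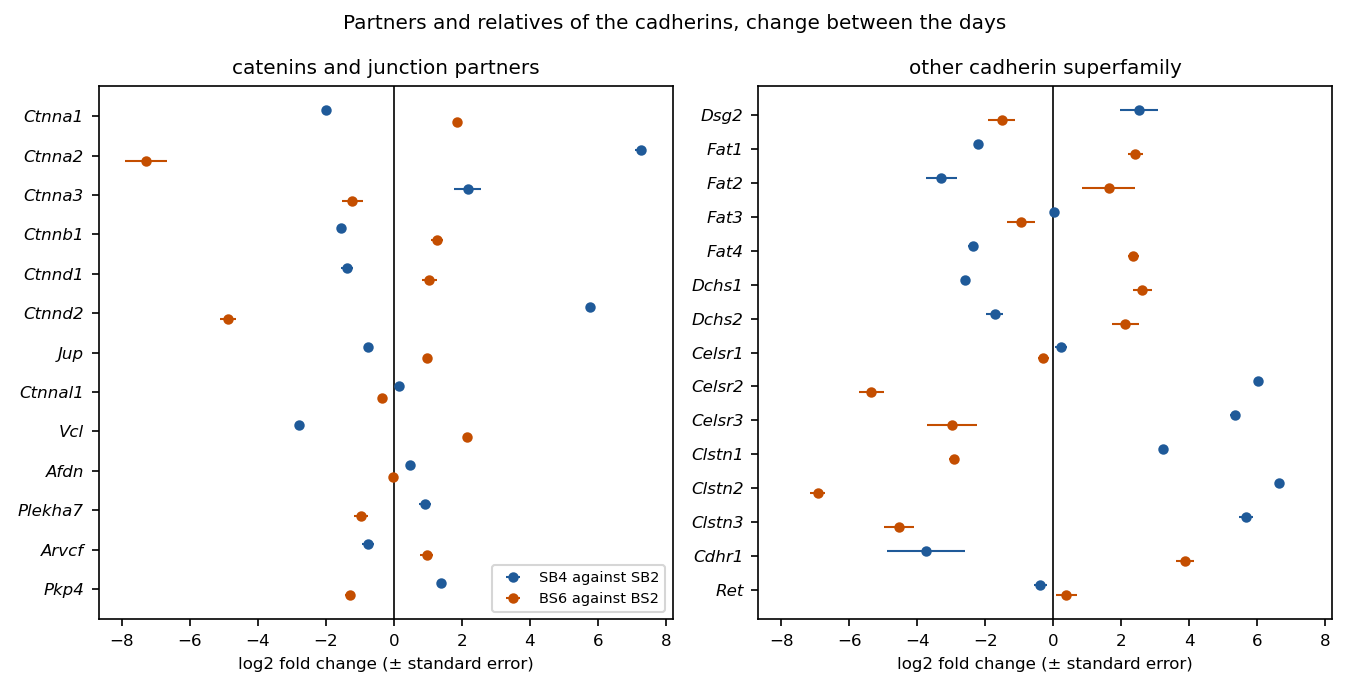
Log2 fold change ± standard error (horizontal axis) of catenins and junction partners (left) and of other cadherin-repeat genes, Ret included (right) in SB4 against SB2 and BS6 against BS2. For most genes the 2 points lie on opposite sides of 0, with Ctnna2 and Clstn2 farthest out.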

How the data were processed

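Messenger RNA of 12 samples was sequenced with paired reads. The authors trimmed the reads with fastp and aligned them to mm10 with HISAT2 2.1.0, per the labels and methods, and deposited raw counts per gene symbol. The counting program, annotation and use of strand are not given in the sources used here, nor whether ComBat_seq preceded the deposit. In fits of 2 groups with 3 libraries each, the robust quasi-likelihood test of edgeR 4.0.16 (R 4.3.3) was run on genes kept by filterByExpr (min.count 10), with TMM factors. Adjustment by Benjamini-Hochberg covered all genes. Called genes had an adjusted p below 0.05 together with a log2 fold change beyond 1 in either direction. Standard errors were obtained from the F statistic and the fitted change. CPM used TMM factors over 12 libraries. Counting intervals of ratios were exact binomial intervals on the counts summed over the libraries of each group, without the spread between libraries. Scripts were tested on simulated counts. DESeq2 1.42.0, other scalings, filters and fits, a replicate block and leaving out each library were alternatives. Of each cluster the 3 genes with the highest mean and the 3 called genes with the largest change in each comparison were named, and any cadherin or solitary protocadherin could be named. Values in every library were given for the 4 called genes with the largest changes in each direction at a mean of 5 CPM or more, and for further genes chosen after their values were seen. The family was taken up for study, and the gene lists were chosen, with earlier results of these data known, although the members follow from their names. Promoters came from RefSeq. The 55 members on chromosome 18 were left out of that search, and 22 of the others had an entry. Exons came from GENCODE M21 (85 of 85).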

Additional observations from a re-analysis of the deposited data

Results flagged for a closer look

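Results were set apart here because the change from SB2 to SB4 and the change from BS2 to BS6 differed in a test of the difference itself, fitted over all 12 libraries with edgeR. The difference was taken on the log2 scale as SB4 minus SB2 less BS6 minus BS2. It passed an adjusted p under 0.05 for 72 of the 83 cadherins and protocadherins tested. That share is close to the 84.9% of all 18068 genes tested. The difference was positive, at 17.80 (SE 0.722) in Cdh7, 16.08 (SE 0.717) in Cdh9, 15.54 (SE 0.651) in Cdh10, 15.52 (SE 0.611) in Pcdh8 and 15.10 (SE 0.526) in Pcdh10. With 4 counts or fewer in SB2 or BS6, the values of Cdh7, Cdh9 and Pcdh8 depend on the prior count of the fit. The difference was negative in Pcdh12 at -8.95 (SE 0.619), in Cdh15 at -8.69 (SE 0.624) and in Cdh3 at -8.62 (SE 1.68), a gene too low to be tested in SB4 against SB2. It was also negative in Cdh5 at -7.48 (SE 0.296), in Cdh1 at -6.10 (SE 0.781) and in Cdh23 at -5.03 (SE 0.721). Brain and bone transcripts changed places in the same way between these groups, and the part of that in each difference cannot be told apart from the day.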

How the results depend on the processing

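With at least 10 counts required in every library, 58 members were tested, and 31 were higher and 5 lower in SB4 against SB2 and 5 higher and 32 lower in BS6 against BS2, since genes near 0 in one group drop out. In BS6 against SB2 the count of lower members was 1 by adjusted p alone and 2 in one fit over 12 libraries (Pcdha11 at -2.20 and Pcdhb2 at -1.20), and the cause was not tested. In SB4 against BS2 it was 1, Cdh1, by DESeq2 and with a replicate block. Leaving out each library in turn gave 48 to 50 higher and 8 to 9 lower in SB4 against SB2, 8 to 9 higher and 48 to 56 lower in BS6 against BS2, 70 to 75 members for the difference of the 2 changes, and 0 to 1 lower in BS6 against SB2 and in SB4 against BS2. It ended the call of 4 members in SB4 against SB2 (Pcdhb13, Pcdhga6, Pcdhga7 and Cdh19) and of 6 in BS6 against BS2 (Pcdhb7, Pcdhb9, Pcdhb11, Pcdhb20, Pcdhb21 and Pcdhga4), and the 8 genes in each comparison whose values are given in every library by rule kept their calls in the alternatives that tested them. Replicate numbers did not pair the libraries (correlation of same-numbered deviations -0.144 to 0.108), and with a replicate block 50 higher and 8 lower were called in SB4 against SB2 and 8 higher and 53 lower in BS6 against BS2. Over all genes the block left 0 called in BS6 against SB2, with 22 higher and 39 lower in SB4 against BS2, and Cdh24 had an adjusted p of 0.114 in BS6 against SB2. Upper-quartile scaling moved the median of all genes to -0.14 in SB4 against SB2 and 0.09 in BS6 against BS2.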
